A study of Rattus norvegicus with 4 samples.

Results

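Cytochrome P450 enzymes are haem proteins that insert an oxygen atom into lipids, steroids, drugs and toxicants, and liver is the organ that is richest in them. The 28 genes described here are all those whose updated symbol begins with Cyp and a family number, apart from Cyp7a1, out of 958 genes named on a spotted rat cDNA array. They were read by 59 of its 1936 probes. By family the members were 1 gene of family 1, 15 of family 2, 1 of family 3, 6 of family 4 and 5 of other families.

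P450 genes are named by sequence, with a number for the family and a letter for the subfamily. Enzymes of families 1, 2 and 3 mainly oxidise foreign compounds, and many are induced through receptors that sense such compounds, AHR for family 1 and CAR and PXR for families 2 and 3. Family 4 enzymes hydroxylate fatty acids and eicosanoids, and its 4A subfamily is a standard target of the fatty acid receptor PPARalpha. Higher-numbered families make or break down sterols, steroid hormones and bile acids. All microsomal members draw electrons from the reductase POR.

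The arrays compared liver RNA of male Sprague-Dawley rats of 250 to 300 g, frozen 18 h after 1 intraperitoneal injection, either of alpha-naphthylisothiocyanate (ANIT, a toxicant of bile ducts, at 75 mg/kg in olive oil) or of an equal volume of the olive oil. RNA of 3 rats per treatment was mixed into 1 pool, and 4 arrays each received both pools. Arrays 1 and 3 carried ANIT in Cy5, arrays 2 and 4 in Cy3. As the pools were the same throughout, there was a single replicate of the treatment, and the differences could not be tested against the spread between rats. The SD given below was taken between arrays that share a dye orientation and pooled (n = 4 arrays). It covers hybridisation alone, and the number of arrays limits the precision. The age of the rats is not given in the labels.

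A value is a log2 ratio of the ANIT pool over the olive oil pool. Array values are given as deposited. Means are given after the median of all probes on an array was subtracted from it, which lowered every mean by 0.15. The direction is the likely one, because titles name ANIT and ANIT is the second channel, but it is not stated for the table. Were it the other way round, every sign below would turn. The table holds ratios and no levels, so whether the tissue expressed a given P450 could not be checked. A lower ratio can come from fewer cells of a type or from less RNA per cell, which cannot be told apart.

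Most P450 members had mean ratios near 0, and the means of 3 lay above the rest. Ratios of many members changed with the dye, and over all probes those that changed most had means close to 0. For such members a mean near 0 cannot show that the pools differed little. The 4 probes listed with several 4A entries, at 0.88 to 1.21, are outside the members and are given below. Cyp1a2, which oxidises aromatic amines and is a classic target of AHR, was 4.01-fold higher in the ANIT pool, the highest of all 958 genes. Cyp2b21 and Cyp2u1 were 1.81-fold and 1.70-fold higher. Cyp4f1, of a subfamily that inactivates eicosanoids such as leukotrienes, was the lowest member at 1.51-fold lower. Of the 28 members, 24 had mean ratios between -0.5 and 0.5.

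The starts of these 4 genes are shown because they mark the ends of the P450 range. Each stretch runs from 250 bases before to 50 after the annotated gene start in RefSeq, build GRCr8, written 5′ to 3′ on the gene's strand. Capitals mark 4 short motifs on either strand, namely GCGTG (the core of the AHR element), TGACNNNGC (the core of the antioxidant element), TATAAA, and AGGTCA (a nuclear receptor half-site). No marked motif overlapped another in these stretches.
Cyp1a2 (chr8:66978100-66978399, minus strand): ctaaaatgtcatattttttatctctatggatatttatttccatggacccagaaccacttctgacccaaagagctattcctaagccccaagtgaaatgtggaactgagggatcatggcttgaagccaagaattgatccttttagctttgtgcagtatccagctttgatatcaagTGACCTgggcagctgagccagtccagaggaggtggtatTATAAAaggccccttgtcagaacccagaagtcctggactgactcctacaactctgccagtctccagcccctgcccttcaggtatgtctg
Cyp2b21 (chr1:91042703-91043002, minus strand): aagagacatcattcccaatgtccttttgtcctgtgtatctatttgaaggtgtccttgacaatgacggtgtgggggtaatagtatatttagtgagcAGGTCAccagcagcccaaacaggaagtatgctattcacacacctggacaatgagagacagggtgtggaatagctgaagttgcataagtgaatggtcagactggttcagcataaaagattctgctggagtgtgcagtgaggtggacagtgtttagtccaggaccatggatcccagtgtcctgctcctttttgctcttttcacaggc
Cyp2u1 (chr2:222540940-222541239, minus strand): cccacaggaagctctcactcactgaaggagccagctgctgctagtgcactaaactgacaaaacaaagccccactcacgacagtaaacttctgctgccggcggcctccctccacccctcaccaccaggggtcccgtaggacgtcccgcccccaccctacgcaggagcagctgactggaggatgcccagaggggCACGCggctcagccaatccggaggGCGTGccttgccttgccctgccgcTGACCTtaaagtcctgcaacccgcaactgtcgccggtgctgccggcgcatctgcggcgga
Cyp4f1 (chr7:12672504-12672803, minus strand): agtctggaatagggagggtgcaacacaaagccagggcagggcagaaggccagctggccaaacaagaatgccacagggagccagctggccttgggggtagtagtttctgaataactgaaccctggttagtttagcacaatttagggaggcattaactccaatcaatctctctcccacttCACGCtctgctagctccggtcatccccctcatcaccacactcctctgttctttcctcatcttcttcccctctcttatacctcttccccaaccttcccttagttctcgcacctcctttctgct

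The table of gene starts held 24 of the 28 members. GCGTG was found in 5 of these, against 29.7% of all 33469 stretches of the same length. Of the 3 higher genes, Cyp2u1 had 2 matches, 58 and 34 bases before its start, and the stretches of Cyp1a2 and Cyp2b21 held none. Cyp4f1, the lowest member, had 1 match 72 bases before its start. AGGTCA occurred in 9 of the 24, among them all 3 higher genes, against 16.2% of all stretches. TATAAA occurred in 5 of the 24 (14.2% of all), among them Cyp1a2 at 39 bases before its start. TGACNNNGC occurred in 2 of the 24, Cyp4b1 and Cyp8b1 (12.1% of all). These are matches of letters and no record of binding.

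A gene was counted as 1.5-fold apart where its mean passed that size and all 4 centred arrays had the sign of the mean. By this rule 3 of the 28 members were higher, against 3.55% of all 958 genes, and 0 were lower, against 2.19%. At 2-fold, 1 member was higher (1.25% of all genes) and 0 were lower (1.15%). Without the need for 1 sign on all arrays, 3 members passed 1.5-fold as higher (4.07% of all genes) and 1, Cyp4f1, as lower (2.71%). Over the 28 members the median ratio was -0.098, with 20 below 0 and 8 above it, while all 958 genes had a median of -0.040, with 563 below 0. As deposited, without centring, the members' median was 0.055, against 0.11 for all genes.

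Cyp1a2 had deposited log2 ratios of 2.09, 2.22, 2.14 and 2.18 on arrays 1 to 4. The deposited values lay close together in both dyes. After centring they were 2.62 and 2.67 on arrays 1 and 3 and 1.38 and 1.35 on arrays 2 and 4. The centred mean was 2.0 ± 0.025, an SD that leaves out this gap between dyes, and its 2 probes had 1.94 and 2.07. It was the only member of family 1 on the array, and the AHR-inducible Cyp1a1 and Cyp1b1 were not among the named probes.

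Cyp2b21, of the subfamily best known for induction through CAR, had 0.86, 0.86, 1.33 and 0.97 on arrays 1 to 4. Array 3 was the highest, and all 4 arrays were well above 0. Its mean was 0.85 ± 0.24 from 1 probe. Cyp2u1, a hydroxylase of long-chain fatty acids, had 0.84, 0.87, 0.99 and 0.98 on arrays 1 to 4. These values hardly differed between the dyes, and the mean was 0.77 ± 0.097, again from 1 probe. After centring, array 2 stood at 0.015 for Cyp2b21 and 0.025 for Cyp2u1, so both met the need for 1 sign on all arrays narrowly. With the centring that follows the dye difference of each probe, described below, Cyp2b21 had 0.68 and Cyp2u1 0.78.

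**Figure D1:**
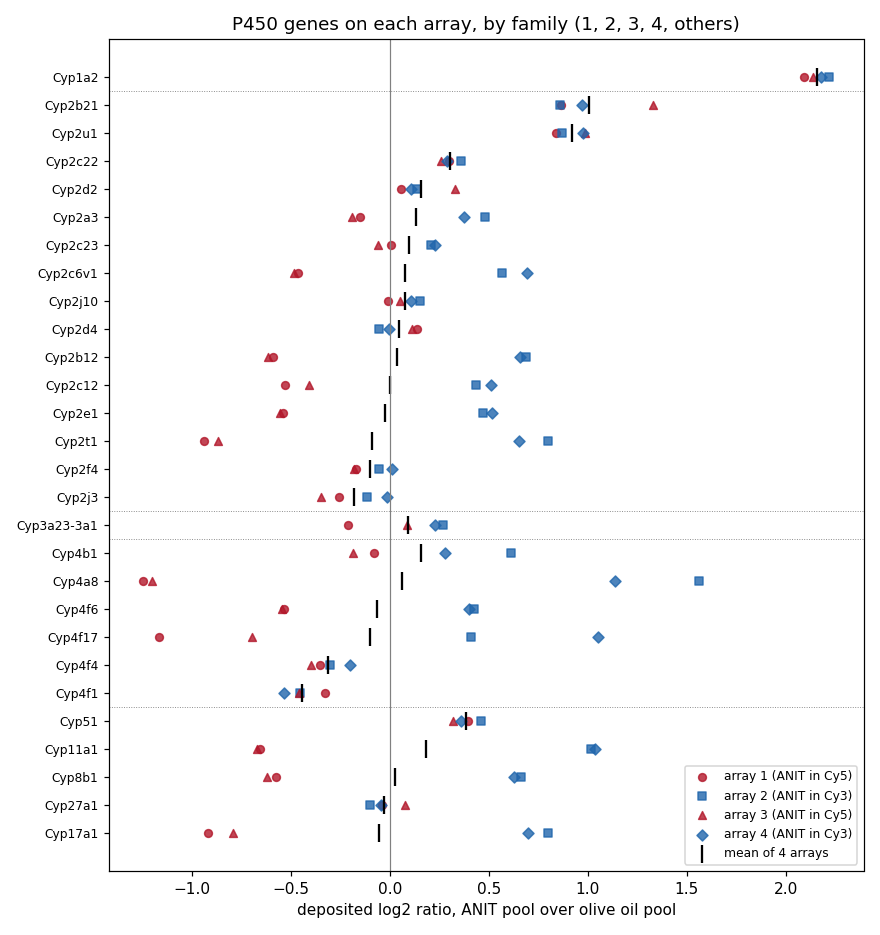
Deposited log2 ratio of the ANIT pool over the olive oil pool (horizontal axis) for each of the 28 P450 genes (vertical axis), in families 1, 2, 3, 4 and others from top to bottom; red symbols mark ANIT in Cy5, blue symbols ANIT in Cy3, and black ticks the mean of 4 arrays. Cyp1a2 lies between 2.09 and 2.22 on every array, Cyp4f1 and Cyp4f4 lie below 0 on every array, and for many other genes the dyes fall on opposite sides of 0.

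The other 13 members of family 2 lay between -0.34 and 0.15. Cyp2j3, which makes epoxides from arachidonic acid, was the lowest of the family, with -0.26, -0.11, -0.35 and -0.015 on arrays 1 to 4 and a mean of -0.34 ± 0.074. All of its deposited arrays were below 0, but its centred arrays 1 and 3 lay above 0, at 0.27 and 0.18. Both of its probes had a centred mean of -0.34. The other 2J gene, Cyp2j10, had a mean of -0.079 ± 0.034. The highest of these 13 was Cyp2c22, at 0.30, 0.36, 0.26 and 0.29 on arrays 1 to 4 and a mean of 0.15 ± 0.032 from 3 probes.

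The 2C subfamily held 4 members with a median of -0.066, running from -0.15 for Cyp2c12, the female-predominant 2C form of rat liver, to 0.15 for Cyp2c22. Cyp2c6v1 had a mean of -0.076 ± 0.071, and Cyp2c23, an arachidonic acid epoxygenase, had -0.057 ± 0.039. None of these 4 was counted. Of the male-predominant list (Cyp2c11, Cyp2c13, Cyp2a2, Cyp3a2 and Cyp3a18), 0 of 5 were among the named probes.

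Cyp2e1, which oxidises ethanol and paracetamol, had the most probes of any member, 7, and a mean of -0.18 ± 0.032. Its deposited values were -0.54, 0.47, -0.56 and 0.51 on arrays 1 to 4, on opposite sides of 0 by dye. Of the 2D subfamily, which oxidises many basic drugs, Cyp2d2 had 0.0042 ± 0.13 and Cyp2d4 -0.11 ± 0.037. Without centring they had 0.16 and 0.047. Cyp2a3 had -0.024, Cyp2b12 -0.12, Cyp2t1 -0.24 and Cyp2f4, which activates naphthalene in lung, -0.25. Family 2 as a whole had a median of -0.079 over 15 genes. Without centring its median was 0.074, against 0.11 for all genes.

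Genes that lie next to each other did not share a ratio in the 2A, 2B, 2F and 2T group. In the assembly GRCr8, Cyp2b21, Cyp2b12, Cyp2a3, Cyp2f4 and Cyp2t1 follow one another with at most 3 other coding genes between neighbours. Cyp2b21 was at 0.85 there, and the other 4 lay between -0.25 and -0.024. All but Cyp2f4 were read by 1 probe each, and the deposited arrays of Cyp2b12, Cyp2a3 and Cyp2t1 fell on opposite sides of 0 by dye.

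Family 3 was represented by Cyp3a23-3a1, the PXR-inducible steroid and drug oxidase, from 1 probe. It had -0.21, 0.27, 0.085 and 0.23 on arrays 1 to 4, and its mean of -0.061 ± 0.15 was smaller than the spread between arrays. Among 11 P450 genes listed as inducible through CAR or PXR, 2 were measured, Cyp3a23-3a1 and Cyp2c6v1, and neither was counted. Cyp2b21, which was counted as higher, was not on that list.

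Family 4 had the lowest median of the families, -0.23 over 6 genes (-0.082 without centring), with 5 of them below 0. Its 4 members of the 4F subfamily, all hydroxylases of fatty acids or eicosanoids, had means below 0, with a median of -0.36. Without centring the median was -0.21 and the 4 means were again below 0. Among them, Cyp4f1 and Cyp4f4 alone were below 0 on every deposited array. The 4 genes follow one another in GRCr8 with at most 5 other coding genes between neighbours. Cyp4f1 had -0.33, -0.46, -0.46 and -0.53 on arrays 1 to 4, all below 0 in both dyes, and a mean of -0.60 ± 0.073. It passed 1.5-fold but was not counted, because centring lifted arrays 1 and 3 above 0. Cyp4f4 had -0.36, -0.31, -0.40 and -0.20 on arrays 1 to 4, again all below 0, and a mean of -0.47 ± 0.065. Its centred arrays 1 and 3 also lay above 0, at 0.18 and 0.13.

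Cyp4f6 had a mean of -0.22 ± 0.0057 and Cyp4f17 one of -0.25 ± 0.40. The deposited values of Cyp4f6 were -0.54, 0.42, -0.55 and 0.40 on arrays 1 to 4, on opposite sides of 0 by dye. Cyp4f17 had the largest SD within a dye orientation of all members, with -1.17 and -0.70 on arrays 1 and 3 and 0.41 and 1.05 on arrays 2 and 4. This SD was larger than the size of the mean. Cyp4b1, the highest of the family, had -0.082, 0.61, -0.19 and 0.28 on arrays 1 to 4 and a mean of 0.0026 ± 0.17. Cyp4a8, a fatty acid hydroxylase, had -0.090 ± 0.20.

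The remaining 5 members act on sterols and steroids. Cyp51, the lanosterol demethylase of cholesterol synthesis, was the highest, with 0.39, 0.46, 0.32 and 0.36 on arrays 1 to 4 and a mean of 0.23 ± 0.053. Its 4 probes were close together, from 0.17 to 0.29. Cyp17a1, a steroid hydroxylase of adrenal and gonad, was the lowest, with -0.92, 0.80, -0.79 and 0.70 on arrays 1 to 4 and a mean of -0.21 ± 0.074. Its arrays fell on opposite sides of 0 by dye.

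The 2 enzymes of bile acid synthesis in this group were close to the other members. Cyp27a1, the mitochondrial sterol hydroxylase that opens the acidic pathway, had a mean of -0.18 ± 0.069, with probes at -0.20 and -0.16. Its deposited values lay near 0, at -0.040, -0.10, 0.076 and -0.048 on arrays 1 to 4. Cyp8b1, the hydroxylase needed for cholic acid, had -0.13 ± 0.022, or 0.023 without centring. Cyp11a1, the side-chain cleavage enzyme of steroidogenic tissue, had 0.029 ± 0.023 over 3 probes from -0.10 to 0.15. Its deposited values were -0.66, 1.01, -0.67 and 1.04 on arrays 1 to 4, on opposite sides of 0 by dye.

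**Figure D2:**
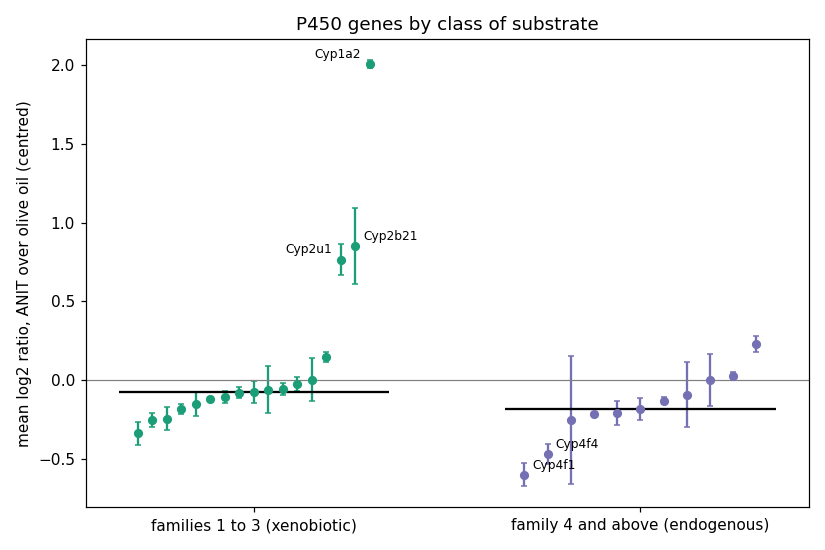
Mean centred log2 ratio of each P450 gene (points, bars are the SD within dye orientation), for families 1 to 3 (17 genes, green) and family 4 and above (11 genes, purple), sorted within each class; black lines are class medians and genes beyond 0.4 in size are named. The medians, -0.076 and -0.18, lie close together, and the 3 highest genes are in the first class, of which Cyp2u1 moves to the second under the other assignment of classes.

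Enzymes of foreign compounds (families 1 to 3, 17 genes) had a median of -0.076, and enzymes of endogenous substrates (family 4 and above, 11 genes) a median of -0.18. The difference was 0.11 ± 0.050, and the ranges overlapped, from -0.34 to 2.0 and from -0.60 to 0.23. All 3 counted genes were in the first class as drawn. With Cyp2j and Cyp2u genes moved to the endogenous class and Cyp4b1 to the xenobiotic class, 2 counted genes were in the first class and 1, Cyp2u1, in the second, and the difference was 0.12. The difference depended on the dye: it was 0.39 and 0.49 on the centred arrays 1 and 3, and -0.022 and -0.025 on arrays 2 and 4. The median dye difference was -0.24 in the first class and -0.95 in the second. Its part in the class difference was not tested, but with centring by dye difference the class difference was 0.047.

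A further 4 probes were outside the members, because the annotation lists each with more than 1 entry of the 4A subfamily, Cyp4a1 given under 2 identifiers or Cyp4a2 together with Cyp4a3. They lay between 0.88 and 1.21, so that the low median of family 4 does not describe them. With them as 2 further entries the median of family 4 was -0.15 over 8 entries, and the class difference was 0.054.

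For many P450 probes the deposited ratio changed with the dye. The difference between orientations (mean of the arrays with ANIT in Cy5 minus mean of those with ANIT in Cy3) ran over all genes from -3.19 to 0.24 with a median of -1.24. For 15 of the 28 members it was at or above -0.47, the 75th percentile of all genes, and for 1 member, Cyp4a8 (-2.57), it was at or below -1.96, the 25th percentile. Among the 28 members, 9 had the same sign on all 4 deposited arrays (the share over all genes is not given here). Of these, Cyp1a2, Cyp2b21, Cyp2u1, Cyp2c22, Cyp2d2 and Cyp51 were above 0 and Cyp4f1, Cyp4f4 and Cyp2j3 below it.

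**Figure D3:**
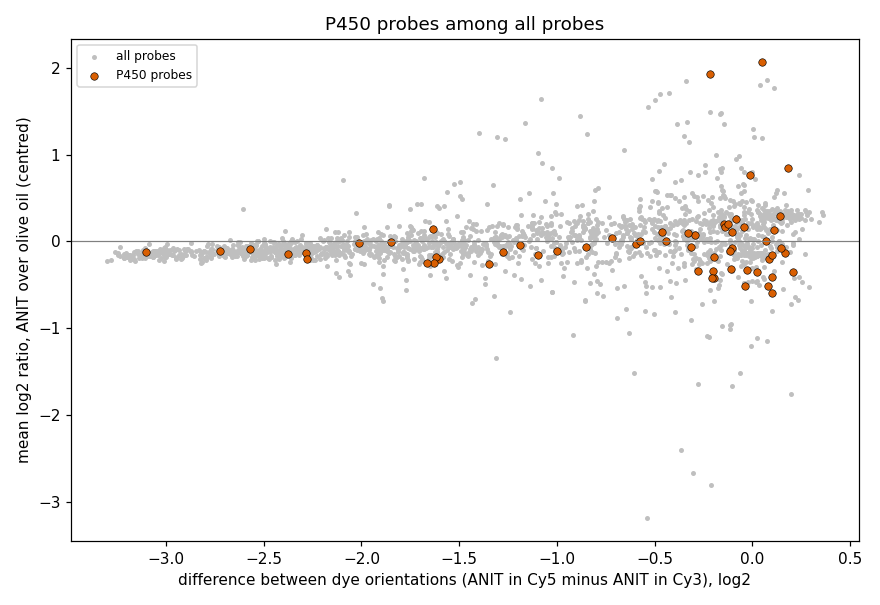
Mean centred log2 ratio (vertical axis) against the difference between dye orientations in log2 (horizontal axis) for all 1936 probes (grey) and the 59 P450 probes (orange). Probes at the left of the plot lie in a narrow band just below 0, and P450 probes beyond 0.5 in size are all found near a dye difference of 0.

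Mean ratios spread least where the dye difference was most negative. Over all probes, the SD of the mean ratios was 0.061 in the 484 probes with the most negative dye differences and 0.46 in the 484 probes at the other end. P450 probes ran from -0.20 to -0.090 in the former (6 probes) and from -0.60 to 2.07 in the latter (31 probes).

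Probes of one gene could be compared in the same way. Of 15 members with several probes, 5 had probes on both sides of 0 (Cyp11a1, Cyp2c12, Cyp2c23, Cyp2c6v1 and Cyp2e1), and 2 had probes over 0.5 apart (Cyp2e1 and Cyp4f6). Cyp4f6 had 2 probes with dye differences of 0.079 and -0.027, which gave -0.52 and -0.32, and 2 with dye differences of -2.01 and -1.85, which gave -0.023 and -0.0015. The former pair lay near Cyp4f1 and Cyp4f4. Its gene mean of -0.22 joins these unlike probes.

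Cyp2e1 had 2 probes with dye differences of 0.099 and 0.21, at -0.41 and -0.35. A probe with a dye difference of -0.33 had 0.10, and the 4 others, with dye differences from -3.10 to -1.19, lay between -0.26 and -0.042. The same cDNA clone was spotted more than once for Cyp2e1 and Cyp2f4 (3 clones in all). For Cyp2e1, both spots of one clone gave -0.35 and -0.26 with dye differences of 0.21 and -1.35, and both spots of another gave 0.10 and -0.042 with dye differences of -0.33 and -1.19. For Cyp2f4 they gave -0.32 and -0.18.

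Cyp2c12 had deposited values of -0.53, 0.44, -0.41 and 0.51 on arrays 1 to 4, and its probes ran from -0.42 to 0.0093. Cyp2c6v1 had -0.47, 0.57, -0.48 and 0.69, and its probes ran from -0.20 to 0.16. Cyp2c23 had 0.0059, 0.21, -0.060 and 0.23, and its probes ran from -0.35 to 0.10. In these 3 genes of the 2C subfamily no single direction holds across probes. P450 genes of one subfamily are alike in sequence, and whether these cDNA probes tell them apart was not tested.

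For 5 members with probes both above -0.5 and below -1 in dye difference, limits set after the values were seen, the probes above -0.5 had the mean of larger size in 4 (Cyp2c12, Cyp2c6v1, Cyp2e1 and Cyp4f6). The exception was Cyp8b1, at -0.11 and -0.15.

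**Figure D4:**
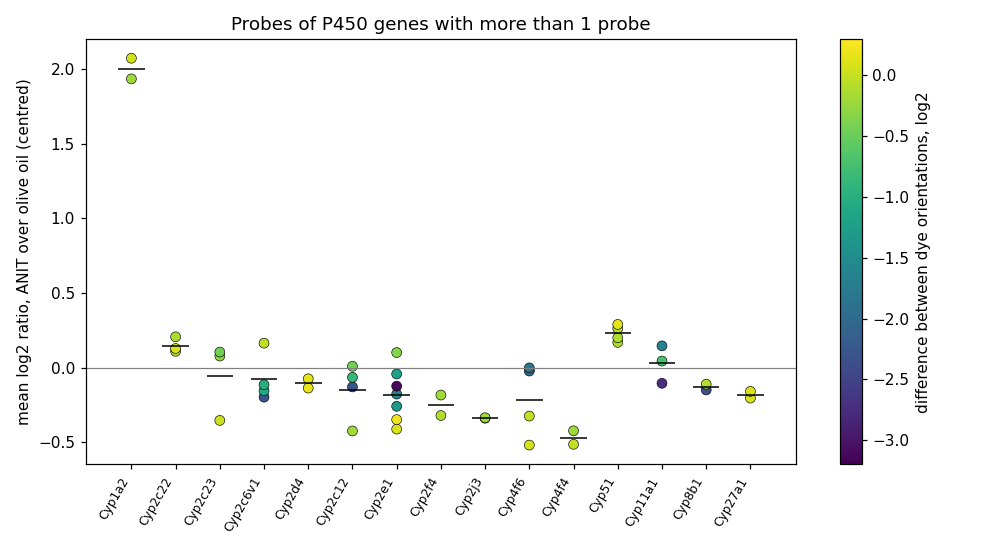
Mean centred log2 ratio of each probe (points) of the 15 P450 genes with more than 1 probe, coloured by the difference between dye orientations in log2 (yellow near 0, dark blue strongly negative); black lines are gene means. Both Cyp1a2 probes lie near 2.0, and in Cyp4f6 the yellow probes at -0.52 and -0.32 stand apart from the dark ones near 0.

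Other genes of the P450 system were taken from lists. Their counts stand against 3.55% of all 958 genes counted as 1.5-fold higher and 2.19% as lower. Among electron donors and partners, 5 of 7 were measured, and POR (Por, 1.05 ± 0.081) and cytochrome b5 (Cyb5a, 0.59 ± 0.060) were counted as 1.5-fold higher and 0 as lower. Cyb5a passed the limit narrowly and lay under it, at 0.58, when each probe was centred on each array by a running median over probes of like dye difference. Cyb5r3, the reductase of cytochrome b5, was lowest at -0.54 ± 0.0080. Pgrmc1, a haem protein that binds P450 enzymes, had 0.18 ± 0.16.

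Of 22 transcription factors of P450 genes, 6 were measured, with 1 higher (Nr0b2, 1.36 ± 0.098) and 1 lower (Nr1h4, -0.68 ± 0.073). Ahr, whose protein induces Cyp1a2, had 0.010 ± 0.041 at a dye difference of -2.20. Nr3c1, the glucocorticoid receptor, had -0.40 ± 0.0086, and Rxra, the partner of CAR and PXR, had -0.065 ± 0.034.

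Among genes listed as AHR targets outside the P450 genes, 2 of 9 were measured and both were counted as higher. These were the quinone reductase Nqo1 at 0.66 ± 0.15 and the glutathione transferase Gsta2 at 0.69 ± 0.069. Whether AHR acted on either was not tested. The deposited values of Nqo1 changed with the dye, with 0.18, 1.52, -0.082 and 1.63 on arrays 1 to 4 and a dye difference of -1.53. Gsta2 was above 0 on all deposited arrays, with a dye difference of -0.40. Among CAR and PXR targets, 6 of 14 were measured, with 3 higher and 0 lower. Aldh1a1, a retinal dehydrogenase, had 0.90 ± 0.16 there, whereas Slco1a4, an uptake transporter, was lowest at -0.41 ± 0.036. The list shares Gsta2 with the AHR targets and Por with the electron donors. Of 5 measured PPARalpha targets of 19, 0 were higher and 1 was lower, Acsl1 at -1.06 ± 0.049, and Hadha was highest at 0.19 ± 0.023.

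Among other oxidation enzymes, 7 of 18 were measured, with Aldh1a1 higher and 0 lower. The lowest was the monoamine oxidase Maob at -0.45 ± 0.060. Among glutathione transferases, 7 of 20 were measured, with Gsta2 higher and 0 lower. Mgst1, the microsomal form, was lowest at -0.64 ± 0.017, and like Cyp4f1 it passed 1.5-fold without having 1 sign on all centred arrays. Of the haem list 2 of 13 were measured, Blvra at -0.18 and Hmox2 at -0.15. None of 28 glucuronosyl- and sulfotransferases and related genes was among the named probes.

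Markers of hepatocytes, the cells that hold most liver P450, were measured for 4 of 8 genes. All 4 were below 0, with a median of -0.20 and a range from -0.68 (Apoa1) to -0.13 (Serpina1), and none was counted. Apoa1 passed 1.5-fold without having 1 sign on all centred arrays, and without centring the median was -0.049 and Serpina1 lay above 0. Their part in the P450 medians was not tested. Cyp1a2, Cyp2b21 and Cyp2u1 lay above all 4 of them. Other cell types were thinly covered, with 2 of 7 cholangiocyte, 1 of 6 neutrophil, 0 of 6 macrophage, 2 of 6 stellate cell, 3 of 6 endothelial and 2 of 5 red cell markers. Of these 10 genes Car1 alone was counted, as lower (-1.35).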

How the data were processed

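Per the labels' protocols, RNA of 3 rats per treatment was mixed, poly(A) RNA was labelled with Cy3 and Cy5, and 4 arrays form a technical dye swap of 1 pair of pools. The deposited values are log ratios and were read as log2 values. How the authors corrected background, normalized and centred them, and with which log base and direction, is not stated in the labels. The deposited array medians were -0.53, 0.85, -0.53 and 0.83.

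Of 1936 probes, 1432 had 1 gene symbol, 19 had several and 485 were not listed. Entrez identifiers matched 1429 of the 1432 to a RefSeq gene table (GRCr8). Arrays were centred on their medians, probes of a gene averaged, and arrays averaged within and then over dye orientations. Across probes, arrays of opposite dye correlated at -0.38 to -0.37 and arrays of one dye at 0.96 to 0.98. The table was read as already turned to 1 treatment ratio, because large values such as Cyp1a2 kept their sign in both dyes. Since there was 1 pool per treatment, no test was made.

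The members, lists and rules were chosen with earlier results of these data known. Array values are given for members counted at 1.5-fold, members whose probes differed in sign or by over 0.5, and the highest and lowest of each family. Cyp4f4 and Cyp4f17 were added after their values were seen, as were Pgrmc1, Nr3c1, Rxra, Ahr, Nqo1 and both genes of the haem list. Of the other lists, counted, highest and lowest genes are named. Alternatives changed centring, probes, dyes, arrays, log base, direction, limits and classes. One of them, a running median, centres each probe on the 201 probes nearest in dye difference. Python 3.11.15, numpy 2.4.6, pandas 2.3.3 and matplotlib 3.10.9 were used.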

Additional observations from a re-analysis of the deposited data

Results flagged for a closer look

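A large P450 signal outside the members came from 4 probes of the 4A subfamily, which hydroxylates fatty acids. These probes enter no gene value because the annotation lists each with more than 1 entry. The 2 probes listed with both Cyp4a2 and Cyp4a3 had mean centred log2 ratios of 1.21 and 1.19. Their deposited values were 1.40, 1.25, 1.33 and 1.47 and 1.34, 1.33, 1.40 and 1.31 on arrays 1 to 4. The 2 probes listed with Cyp4a1 under 2 identifiers had 0.998 and 0.88, from deposited values of 0.94, 1.24, 1.18 and 1.25 and of 1.00, 1.14, 0.83 and 1.17. All 4 probes were above 0 on every array, with dye differences between -0.24 and 0.049. Averaged per entry they were 2.30-fold and 1.92-fold higher in the ANIT pool, above every member other than Cyp1a2. Which of the 4A genes they read was not tested.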

How the results depend on the processing

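The running median on each array, the class difference without Cyp2b21 and Cyp2u1 (0.10) and the inclusion of shared Cyp4a probes were chosen after seeing the data. Without centring, 2 members were 2-fold higher (Cyp2b21 joined Cyp1a2), and with natural logs 3. Centring on housekeeping genes, the running median on each array and no sign rule each gave 1 member 1.5-fold lower, Cyp4f1. Of all genes, 31 were 1.5-fold lower and 33 higher with the running median on each array. With the shared Cyp4a probes, 5 entries were 1.5-fold and 2 were 2-fold higher, and the class difference was 0.054. It was 0.047 with the running median on each array and 0.29 as a difference of means, which Cyp1a2 enters. With ANIT in Cy5 alone 7 members were 1.5-fold higher, 1 lower and 3 were 2-fold higher, with a class difference of 0.48. With ANIT in Cy3 alone 1 member was 1.5-fold higher, 10 were lower and 2 were 2-fold lower, with a class difference of -0.016. Read as a dye ratio, the table gave 9 members 1.5-fold higher, 1 lower and 0 at 2-fold higher, a class difference of 0.36, and 0.64 for Cyp1a2. The cause of these changes was not tested. The shares of all genes with single dyes or read as a dye ratio are not given here, so these counts cannot be read as particular to P450 genes. With each array left out in turn, 3 members stayed the count at 1.5-fold and 1 at 2-fold higher, 0 were lower, and the class difference ran from 0.067 to 0.12. With the running median of means, 2 members were counted as 1.5-fold higher. Cyp2b21 had 0.67 there, still past 1.5-fold in size, but lost the same sign on all arrays. The mean ratio changed sign for 10 of the 28 members without centring, 13 with ANIT in Cy5 alone, 5 with ANIT in Cy3 alone and 17 when read as a dye ratio, whereas Cyp1a2, Cyp2b21 and Cyp2u1 kept their sign in all these settings. No paired analysis was possible because all arrays carry the same pair of pools. Spot brightness was not analysed here.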
